A study of Rattus norvegicus with 16 samples.

Results

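Expression of 10 genes of microglia and monocytes was read in RNA of the rat gustatory cortex (GC), with Ccr2 as the gene that led to the choice. The members are Ccr2, Cx3cr1, Csf1r, Aif1, P2ry12, Tmem119, Trem2, C1qa, Cd68 and Itgam. Every probe set that the array annotation pairs with 1 of these symbols was taken. All 10 genes were found, with 1 probe set each, among 15209 probe sets that the annotation pairs with 1 gene (14497 genes) and 28826 probe sets in all. Ccr2 was selected on its measured values, as its level after saccharin lay below that after water at 1 h in these same arrays. That difference is therefore given as a description with no test. The same holds for every other difference of Ccr2 that takes in its 1 h levels. The other 9 genes were chosen as markers of microglia or related myeloid cells, with earlier results of these data known.

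Microglia are the resident macrophages of the brain and are kept alive by signals through the Csf1 receptor. They survey the tissue with motile processes, sense nucleotides and neuronal chemokines, and clear debris and synapses with the help of complement. Monocytes circulate in blood and leave the bone marrow through Ccr2, a chemokine receptor that adult resident microglia of mice lack in health.

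The 16 arrays come from male Wistar Hola rats, labelled 2 months old, that had been kept on restricted water and trained to drink from pipettes. On the test day, 4 rats drank water, the familiar taste, and were killed 1 h later (water 1 h), and 4 drank water and were killed at 3 h (water 3 h). Another 4 rats drank 0.1% saccharin, the unfamiliar taste, and were killed at 1 h (saccharin 1 h), and 4 were killed at 3 h after saccharin (saccharin 3 h). Water restriction and drinking were thus common to every group, and there was no group without a drink. Each array holds the total RNA of the GC of 1 rat, with all its cell types and the blood left in it. In such tissue, fewer cells of a type and less RNA per cell cannot be told apart. The sample titles carry the codes C365 to C372 in the 3 h groups and C373 to C380 in the 1 h groups. The titles do not say what the codes number, and time and the order of the codes cannot be told apart. The codes are used here to name the arrays.

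Levels are log2 values from robust multi-array averaging (RMA), in which 1 unit is a doubling. The median of an array lay between 5.08 and 5.16. Markers of cortical neurons (8 measured of 12 listed) averaged 9.17 to 9.19 in the 4 groups. The probe sets of most microglial genes were well above the middle of the array. The mean over 16 arrays was 8.34 for Csf1r (percentile 89.1 of all probe sets), 7.61 for Cx3cr1 (percentile 81.5), 7.44 for C1qa (percentile 79.4), 7.05 for Tmem119 (percentile 74.4) and 7.02 for P2ry12 (percentile 74.0). Aif1 averaged 6.26 (percentile 64.0), Trem2 5.46 (percentile 54.2) and Itgam 4.84 (percentile 46.5). The probe sets of Ccr2 (3.93, percentile 32.7) and of Cd68 (3.86, 31.5th) gave low signals. These percentiles describe probe sets and do not rank the transcripts, since probe sets differ in how strongly they bind.

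The sequence before the transcription start was read for the members that RefSeq's promoter table (GRCr8) holds, which are 7 of 10 (Ccr2, Cx3cr1, Csf1r, Trem2, C1qa, Cd68 and Itgam). In 2 of the 7, C1qa and Cd68, the 250 bases before the start lie outside the gene's RefSeq model, and these are printed from 5′ to 3′. The windows of the other members overlap their gene models and are not printed. C1qa had the larger of the differences over time described below, and Cd68 was among the most scattered members. Capitals mark GAGGAA, the core that the myeloid transcription factor PU.1 binds, or its reverse complement TTCCTC.
C1qa, chr5:154419934-154420183, minus strand: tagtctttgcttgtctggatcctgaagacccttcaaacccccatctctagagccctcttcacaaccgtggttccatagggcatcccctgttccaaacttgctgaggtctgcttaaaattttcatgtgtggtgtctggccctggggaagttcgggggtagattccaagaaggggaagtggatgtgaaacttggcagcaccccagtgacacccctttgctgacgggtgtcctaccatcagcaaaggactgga
Cd68, chr10:54882442-54882691, minus strand: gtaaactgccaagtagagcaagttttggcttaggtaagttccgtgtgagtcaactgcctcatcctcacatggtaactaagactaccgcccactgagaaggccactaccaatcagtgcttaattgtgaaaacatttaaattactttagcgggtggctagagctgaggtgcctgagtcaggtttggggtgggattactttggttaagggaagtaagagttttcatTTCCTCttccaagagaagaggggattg
The C1qa window held no match on either strand. The Cd68 window held 1, which began 27 bases before the start, at -27. Of the 7 members, 4 had at least 1 match in 250 bases (Csf1r at -229 and -95, Trem2 at -29, Cd68 at -27, Itgam at -151 and -39), and Ccr2 and Cx3cr1 had none, like C1qa. The same letters occur in 23.3% of 33469 RefSeq promoter windows of this length. A match is a string of letters and not a measured site.

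**Figure D1:**
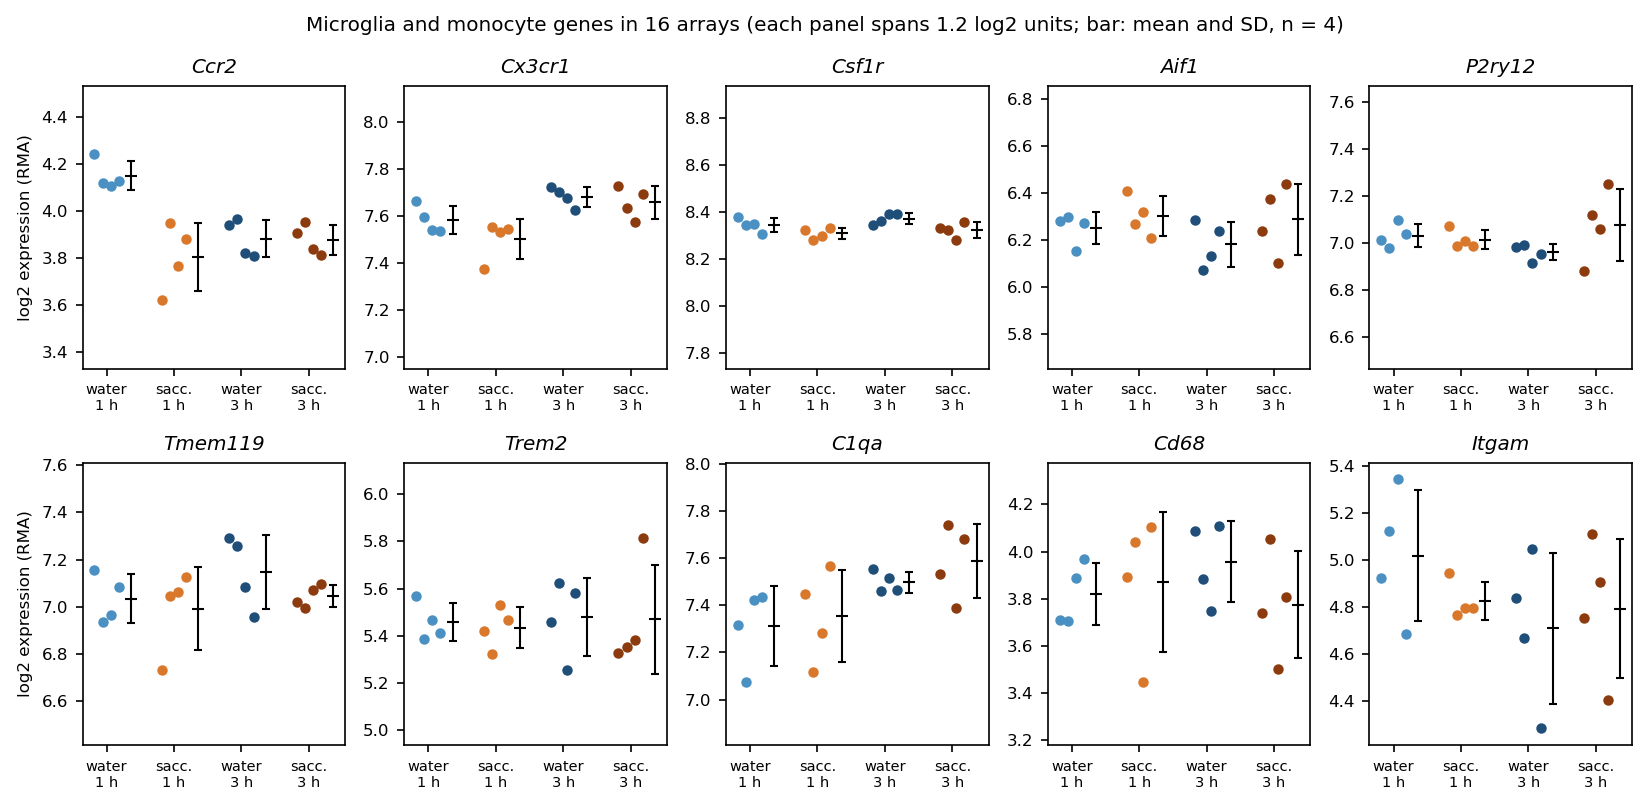
RMA log2 expression (y axis) of the 10 genes in 4 groups of 4 arrays (x axis), 1 point per rat, with the mean and SD beside the points. All panels span the same number of log2 units, so scatter can be compared between panels: Csf1r stayed between 8.28 and 8.39, while Itgam ran from 4.28 to 5.34, and the 4 Ccr2 values of water 1 h lie above all others.

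Ccr2, the receptor for Ccl2, was highest in the familiar taste group at 1 h. In water 1 h its level was 4.24, 4.12, 4.11 and 4.13 (arrays C373, C374, C376 and C378), a mean of 4.15 ± 0.06 (SD, n = 4). In saccharin 1 h it was 3.62, 3.95, 3.77 and 3.88 (C375, C377, C379 and C380), a mean of 3.80 ± 0.14 (SD, n = 4). No array of saccharin 1 h reached the lowest of water 1 h. In water 3 h it was 3.94, 3.96, 3.82 and 3.81 (C365, C367, C369 and C371), a mean of 3.88 ± 0.08 (SD, n = 4). In saccharin 3 h it was 3.91, 3.95, 3.84 and 3.81 (C366, C368, C370 and C372), a mean of 3.88 ± 0.06 (SD, n = 4). In order, water 1 h stood first and apart, and the other 3 groups overlapped one another.

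The difference that chose Ccr2, saccharin minus water at 1 h, was -0.34. It was -0.28 without array C375, the lowest of the 16, and -0.39 without C377. Across all probe sets tested, 1.5% had groups that do not overlap in this comparison, and nothing is read from Ccr2 being 1 of them. Water 1 h also lay above water 3 h without overlap, by 0.27. In that comparison 4.35% of probe sets tested had groups that do not overlap, in either direction. By contrast, saccharin 1 h minus saccharin 3 h was -0.07, and only -0.01 without array C375. Both of these differences over time use the 1 h arrays that chose the gene. The levels of the 3 h arrays did not enter the difference that chose the gene. There saccharin minus water was -0.0051, with a 95% interval from -0.14 to 0.13 (limma, adjusted p = 0.999). The spread behind that interval and p comes from all 16 arrays, those of 1 h included. This interval is not adjusted for the number of genes. No member had groups without overlap at 3 h, as 1.91% of probe sets tested did.

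Red cell markers also had their highest mean in water 1 h. The mean level of 4 red cell genes (Hbb, Hbb-b1, Alas2 and Slc4a1, of 7 listed) was 6.80 ± 0.10 in water 1 h (SD, n = 4, range 6.68 to 6.90), 6.59 ± 0.25 in saccharin 1 h (6.30 to 6.91), 6.55 ± 0.09 in water 3 h (6.43 to 6.63) and 6.41 ± 0.23 in saccharin 3 h (6.24 to 6.75). Saccharin minus water at 1 h was negative for 4 of 4, with a median of -0.24, and 0 of 4 had an unadjusted p under 0.05. For 1 h minus 3 h after water, Hbb, a beta globin whose probes may also bind its near-identical copies, was at 0.39 (limma, adjusted p = 0.618) and Hbb-b1 at 0.45 (adjusted p = 0.522). The part of blood in the Ccr2 values was not tested. The other monocyte and border macrophage markers (15 measured of 16) differed in both directions between saccharin and water at 1 h, 8 positive and 7 negative. Their differences ran from -0.21 to 0.09 with a median of 0.0090, and 0 of 15 had an unadjusted p under 0.05. The mean of these 15 was 4.94 ± 0.05 in water 1 h, again the highest, and 4.91 ± 0.07 in saccharin 1 h (SD, n = 4). It was 4.90 ± 0.03 in water 3 h and 4.89 ± 0.09 in saccharin 3 h. Water 1 h also had the highest mean for other microglial genes (6.08), myeloid transcription factors (5.18), microglial activation (4.338) and lymphocytes (3.62). It did not for phagocytosis and complement, ligands or chemokine receptors. Nor did it for neurons, astrocytes, oligodendrocytes, endothelium and pericytes, or leptomeninges and fibroblasts. The part of monocytes in the Ccr2 values was not tested. Among 10 lymphocyte markers (12 listed), whose T cells can also carry Ccr2, 2 had a negative difference at 1 h with an unadjusted p under 0.05, beside 3.06% of all probe sets tested. They were Cd3d, a chain of the T cell receptor complex, at -0.18 and Cd8b at -0.13 (adjusted p = 1.00 for both), while Cd3e, another chain of that complex, was at 0.09, Cd4 at 0.03 and the median of the list at -0.02. The ligand Ccl2, read at 3.64, differed by 0.04 between saccharin and water at 1 h and by -0.14 at 3 h, and neither passed the test (adjusted p = 1.00 and 0.999).

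The list of other chemokine receptors gave 11 genes with a probe set of their own. Saccharin minus water at 1 h ran from -0.07 to 0.12 over the 11, with a median of -0.02. Of the 11, 0 had an unadjusted p under 0.05, beside 3.06% of all probe sets tested. The 5 probe sets most like Ccr2 over 16 arrays, among 15199, were Lrrc24 (Pearson's r = 0.82), Fbxl15 (0.79), Fancd2 (0.77), Or2ah1 (0.73) and Trim8 (0.72). None of them is a member or on any of the lists. These r values include the differences between groups and are given as a description.

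The fit placed none of the 9 genes other than Ccr2 past an adjusted p of 0.05 in any of 6 comparisons. The table as a whole gave few calls as well: 0% of probe sets for saccharin minus water at 1 h, 0% at 3 h, 0.348% for 1 h minus 3 h after saccharin, 0.125% after water, 1.01% for time averaged over tastes and 0% for the interaction of taste and time. At an unadjusted p under 0.05, the 9 genes other than Ccr2 gave 0 at 1 h and 0 at 3 h for saccharin minus water, 2 for time after saccharin, 0 for time after water, 2 for time averaged over tastes and 0 for the interaction. Of all probe sets tested, 3.06%, 3.37%, 7.98%, 7.23%, 12% and 2.96% did so, in that order.

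**Figure D2:**
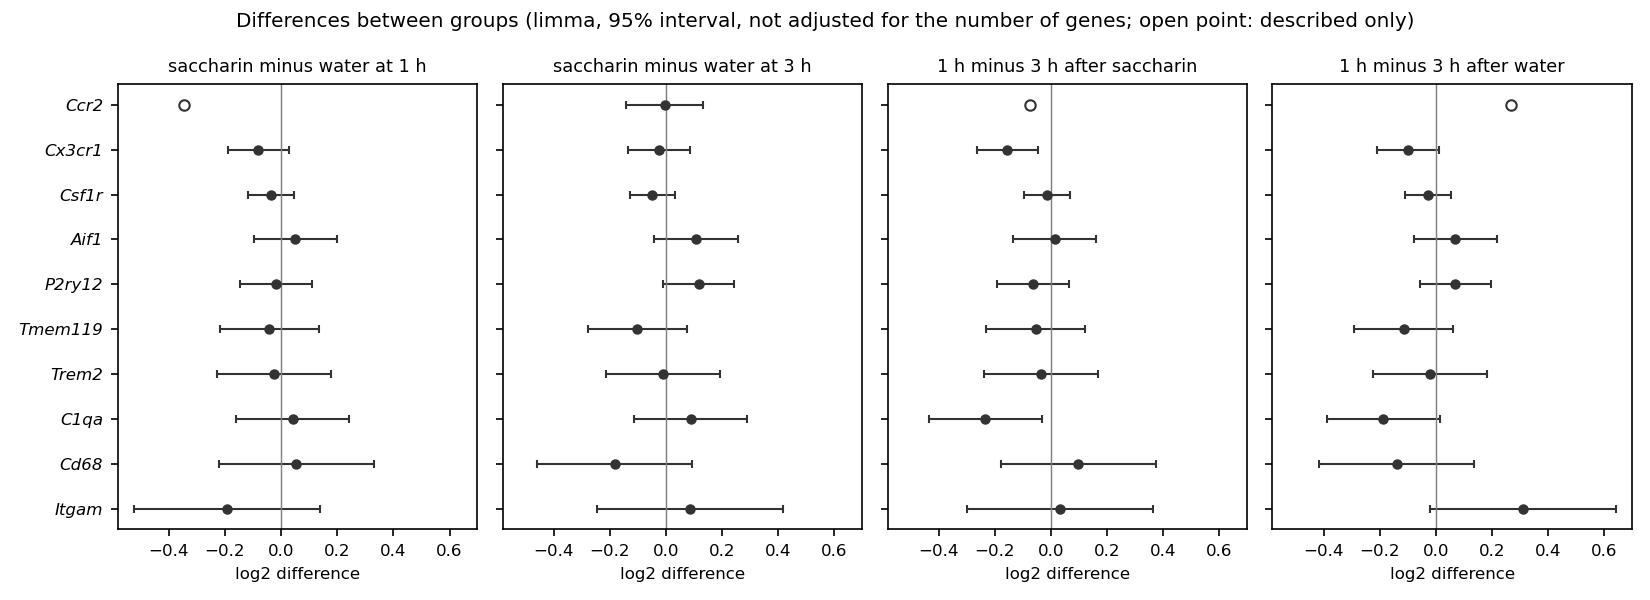
Log2 differences (x axis) for each gene (y axis) in 4 comparisons, with 95% intervals from limma over 16 arrays that are not adjusted for the number of genes. Open points mark Ccr2 where the arrays that chose it enter the difference, given without an interval. The intervals of Cx3cr1 and C1qa lie below 0 for time after saccharin. Those of all 9 other genes include 0 for both comparisons of taste.

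Cx3cr1, the receptor through which microglia read the neuronal chemokine fractalkine, had lower mean levels at 1 h than at 3 h, but the difference did not pass the test. Its level was 7.66, 7.60, 7.54 and 7.54 in water 1 h (C373, C374, C376 and C378) and 7.38, 7.56, 7.54 and 7.54 in saccharin 1 h (C375, C377, C379 and C380). It was 7.73, 7.70, 7.68 and 7.63 in water 3 h (C365, C367, C369 and C371) and 7.73, 7.64, 7.57 and 7.69 in saccharin 3 h (C366, C368, C370 and C372). After saccharin the 4 arrays of 1 h lay below the 4 of 3 h, and after water they overlapped. In the comparison after saccharin, 4.78% of probe sets had groups that do not overlap, in either direction. Averaged over tastes, 1 h minus 3 h was -0.13 (SE 0.04, 95% interval -0.20 to -0.05), with an unadjusted p of 0.00283 and an adjusted p of 0.126 from limma, which does not pass. After saccharin it was -0.16 (adjusted p = 0.364) and after water -0.10 (adjusted p = 0.729). Leaving out array C375, the lowest, gave -0.11 for the average. Saccharin minus water was -0.08 at 1 h and -0.02 at 3 h, with both intervals including 0. Its ligand Cx3cl1, read at 10.45, was at -0.05 for 1 h minus 3 h averaged over tastes (adjusted p = 0.626).

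C1qa, a chain of the complement protein that tags material for removal, had the larger difference over time, again lower at 1 h and again not past the test. Its level was 7.32, 7.07, 7.42 and 7.43 in water 1 h (C373, C374, C376 and C378) and 7.45, 7.12, 7.28 and 7.57 in saccharin 1 h (C375, C377, C379 and C380). It was 7.55, 7.46, 7.52 and 7.47 in water 3 h (C365, C367, C369 and C371) and 7.54, 7.74, 7.39 and 7.68 in saccharin 3 h (C366, C368, C370 and C372). After water the arrays of 1 h all lay below those of 3 h, and after saccharin they overlapped. In the comparison after water, 4.35% of probe sets had groups that do not overlap, in either direction. Averaged over tastes, 1 h minus 3 h was -0.21 (SE 0.07, 95% interval -0.35 to -0.07), with an unadjusted p of 0.00636 and an adjusted p of 0.178 from limma. Within tastes it was -0.23 after saccharin (adjusted p = 0.550) and -0.19 after water (adjusted p = 0.716), or -0.11 after water without C374. Saccharin minus water was 0.04 at 1 h and 0.09 at 3 h.

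The remaining 7 genes showed no difference between groups that the test separated from the spread of the rats. Csf1r, the receptor for Csf1 and Il34 on which microglia depend, was the steadiest. Its values ran from 8.28 to 8.39 over all 16 arrays, and its pooled SD within groups was 0.03, which only 26 of 15209 probe sets tested undercut. Its group means were 8.34 in water 1 h, 8.31 in saccharin 1 h, 8.37 in water 3 h and 8.32 in saccharin 3 h. Saccharin minus water had a 95% interval from -0.12 to 0.05 at 1 h and from -0.13 to 0.03 at 3 h. The ligands gave no call either. Il34, read at 8.21, lay between group means of 8.19 and 8.25, and Csf1, read at 5.24, differed most between saccharin and water at 3 h, by 0.14 (adjusted p = 0.999).

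P2ry12, the ADP receptor that steers microglial processes, was tight in 3 groups and scattered in 1. Its values in saccharin 3 h were 6.88, 7.12, 7.06 and 7.25 (C366, C368, C370 and C372), a mean of 7.08 ± 0.15 (SD, n = 4). In water 3 h it was 6.96 ± 0.04, in water 1 h 7.03 ± 0.05 and in saccharin 1 h 7.01 ± 0.04. Saccharin minus water at 3 h was 0.12, with an interval from -0.01 to 0.24, and it was 0.06 without C372 and 0.18 without C366. Tmem119, a membrane protein that marks resident microglia, ran from 6.73 to 7.29. Its group means were 7.03 in water 1 h, 6.99 in saccharin 1 h, 7.15 in water 3 h and 7.05 in saccharin 3 h, with SDs from 0.05 to 0.18, and its ranges overlapped in all 4 groups. Aif1, the actin-binding protein known as Iba1, ran from 6.07 to 6.44 with means from 6.18 (water 3 h) to 6.30 (saccharin 1 h).

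Itgam, Cd68 and Trem2 were the most scattered members between rats, with C1qa close behind. The pooled SD within groups was 0.154 for Trem2 and 0.153 for C1qa. Trem2, a lipid-sensing receptor of microglia, averaged 5.43 to 5.48 in the 4 groups, with its highest value, 5.81, in array C372 of saccharin 3 h. Cd68, a lysosomal glycoprotein of phagocytes, ran from 3.45 to 4.11, and its pooled SD within groups, 0.22, was above that of 98.1% of probe sets tested. Itgam, the alpha chain of a complement receptor, ran from 4.28 to 5.34 with a pooled SD of 0.26, above that of 99.0%. The mean of Itgam was 5.02 ± 0.28 in water 1 h and 4.71 ± 0.32 in water 3 h (SD, n = 4), a difference of 0.31 with an interval from -0.02 to 0.64 (limma, adjusted p = 0.714), and of 0.17 without C371. For such genes the 4 rats of a group leave wide intervals, which for saccharin minus water reached -0.52 to 0.14 for Itgam at 1 h and -0.46 to 0.09 for Cd68 at 3 h.

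The 9 genes other than Ccr2 had differences of both signs. The median of their differences was -0.02 for saccharin minus water at 1 h and -0.01 at 3 h, -0.04 for time after saccharin and -0.03 after water, and -0.02 for time averaged over tastes. Over all probe sets tested the medians were 0.00246, -0.00345, 0.00232, -0.00226 and -1.15e-05. The list held both signs in each, with 3 genes higher and 6 lower after saccharin at 1 h, and 4 higher and 5 lower at 3 h. The median at 3 h turned positive in 3 of 16 cases with 1 array left out, up to 0.04. Regardless of sign, the median size of the difference was 0.04 at 1 h and 0.09 at 3 h for taste, 0.05 for time after saccharin, 0.10 for time after water and 0.04 for time averaged. Over all probe sets tested it was 0.04, 0.04, 0.05, 0.05 and 0.04, in the same order. Several members were also more scattered within groups than most probe sets tested. By pooled SD, Itgam stood at percentile 99.0, Cd68 at 98.1, Trem2 at 92.1, C1qa at 91.6 and Tmem119 at 83.1. Aif1 stood at 62.8, P2ry12 at 40.0, Cx3cr1 at 17.8 and Csf1r at 0.178. The part of this scatter in the sizes of the differences was not tested.

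Levels within groups showed whether the same rats were high for several members. For each array, the deviation from its group mean was taken, and all 45 pairs of the 10 genes were compared over 16 arrays (permutation test within groups, two-sided). Over the 36 pairs without Ccr2, Pearson's r ran from -0.62 to 0.69 with a median of 0.06, and 22 pairs were positive. None of these 36 passed Benjamini-Hochberg adjustment over 45 pairs, while 2 had an unadjusted p under 0.05. The 9 pairs with Ccr2 hold the arrays that chose it and are given without a test. The 3 highest values joined Ccr2, Cx3cr1 and Tmem119. Ccr2 and Tmem119 gave r = 0.72 and Spearman's rho = 0.70, and r = 0.61 without the 2 arrays farthest from the median of Ccr2. Ccr2 and Cx3cr1 gave r = 0.71 and rho = 0.68, and r = 0.53 without those 2. Cx3cr1 and Tmem119 gave r = 0.69 and rho = 0.69 (permutation p = 0.0141, adjusted p = 0.249), and r = 0.64 without the 2 farthest for Cx3cr1. Array C375 of saccharin 1 h was the lowest of all 16 for each of these 3 genes. With that or any other single array left out, r stayed between 0.50 and 0.79 for Ccr2 and Cx3cr1, between 0.51 and 0.79 for Ccr2 and Tmem119, and between 0.46 and 0.80 for Cx3cr1 and Tmem119. P2ry12 and Trem2 gave r = 0.65 and rho = 0.49 (permutation p = 0.0759, adjusted p = 0.683), but r = 0.27 without the 2 arrays farthest from the median of P2ry12, so this relation rests on those arrays. Array C372 of saccharin 3 h was the highest of 16 for both. The lowest r, -0.62, was that of Trem2 and Itgam (rho = -0.53, permutation p = 0.0494, adjusted p = 0.555), and it was -0.36 without the 2 arrays farthest from the median of Trem2.

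**Figure D3:**
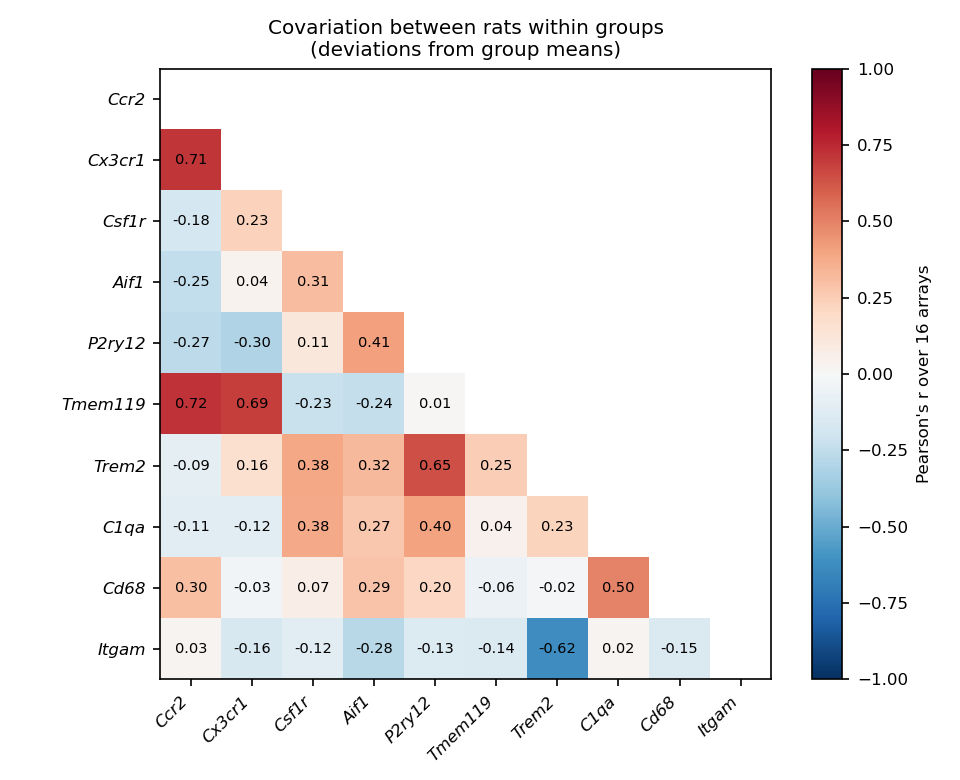
Pearson's r for the 45 pairs of the 10 genes, on a colour scale from -1 to 1, over the deviations of 16 arrays from their group means. The darkest red squares join Ccr2, Cx3cr1 and Tmem119 (0.69 to 0.72), and most other pairs are pale, with a median of 0.06 over the 36 pairs without Ccr2.

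The mean deviation of the 9 genes in an array ran from -0.08 (C370) to 0.08 (C368), both in saccharin 3 h. Across the other 15199 probe sets, the 5 most like this mean were Btn3a2 (r = 0.87), Tasp1 (0.84), Zc4h2 (0.80), C5ar1 (0.79) and Bax (0.78). C5ar1, a complement receptor of myeloid cells, was the only one of the 5 on a list here. The median r with the mean was 0.20 over 15 genes of phagocytosis and complement and 0.10 over 13 other microglial genes. It was 0.13 over 15 monocyte and border macrophage markers, beside -0.02 over all probe sets tested. Other myeloid lists were negative, at -0.08 over 7 myeloid transcription factors and -0.22 over 11 chemokine receptors. The 7 oligodendrocyte genes, of another cell type, had a median of 0.19. These are descriptions over arrays, with no test.

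Other genes of the same cells and pathways were read from lists. None of them passed an adjusted p of 0.05 in any of the 6 comparisons. For time averaged over tastes, 0 of 13 other microglial genes had an unadjusted p under 0.05, beside 12% of all probe sets tested, and their median was -0.01. Of 15 genes of phagocytosis and complement, 3 had such a p, 1 with a positive and 2 with a negative difference. Mertk, a receptor for the uptake of dying cells, was at 0.18 (SE 0.04, limma adjusted p = 0.0604). Fcgr1a, a receptor for antibody, was at -0.21 (SE 0.06, adjusted p = 0.132) and C3ar1, a complement receptor, at -0.17 (SE 0.07, adjusted p = 0.280). Fcgr1a stood at 4.39 ± 0.16 in saccharin 1 h, against 4.70 ± 0.09 in water 1 h, 4.73 ± 0.09 in water 3 h and 4.77 ± 0.18 in saccharin 3 h (SD, n = 4). Its difference of saccharin and water at 1 h was -0.31 (unadjusted p = 0.00201, adjusted p = 1.00), and 1 h minus 3 h after saccharin was -0.39 (adjusted p = 0.0698). For taste at 1 h it was the only 1 of the 15 with an unadjusted p under 0.05, beside 3.06% of all probe sets tested. At 3 h 1 other gene of the 15 had such a p, with a negative difference of -0.27, beside 3.37%.

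The companions of C1qa were looked up after its values had been seen. C1qb, a second chain of the same complement protein, was at -0.06 for 1 h minus 3 h averaged over tastes (limma adjusted p = 0.687). C1qc, the third chain, was at -0.02 (adjusted p = 0.933). Of 7 myeloid transcription factors, 0 had an unadjusted p under 0.05 in any comparison, beside 2.96% to 12% of all probe sets tested. Spi1, which encodes PU.1, was at 0.10 for time averaged over tastes (adjusted p = 0.495). Of 11 ligands, Tgfb1, a growth factor that microglia need, was at -0.12 (adjusted p = 0.232) and Ccl4, a chemokine of activated microglia, at 0.13 (adjusted p = 0.405). Of 13 genes of microglial activation, 1 had an unadjusted p under 0.05 for time averaged over tastes, beside 12% of all probe sets tested. It was Ptgs2, which cortical neurons also express, at 0.30 (SE 0.10, adjusted p = 0.199). Of 15 monocyte and border macrophage markers, Cd74, a chain of antigen presentation, was at 0.27 (adjusted p = 0.261) and S100a9, a neutrophil and monocyte protein, at -0.15 (adjusted p = 0.244).

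Genes of the membranes around the brain had higher levels at 1 h, with none past an adjusted p of 0.05. All 9 measured markers of leptomeninges and fibroblasts (10 listed) were higher at 1 h than at 3 h averaged over tastes, with a median of 0.29, and 7 of 9 had an unadjusted p under 0.05, beside 12% of all probe sets tested. Their mean level was 6.94 ± 0.15 in water 1 h, 7.03 ± 0.14 in saccharin 1 h, 6.75 ± 0.17 in water 3 h and 6.66 ± 0.27 in saccharin 3 h (SD, n = 4). Col1a1, a collagen chain, was at 0.34 (SE 0.08, limma adjusted p = 0.0617). These differences have the opposite sign to those of Cx3cr1 and C1qa, and the part of such tissue in the values of either gene was not tested. Astrocytes (8 genes, median 0.02), oligodendrocytes (7 genes, median -0.0048) and cortical neurons (8 genes, median -0.02) stood near 0 in the same comparison, and endothelium and pericytes (9 genes) had a median of 0.02, with 1 positive and 2 negative at an unadjusted p under 0.05, against the same 12%.

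**Figure D4:**
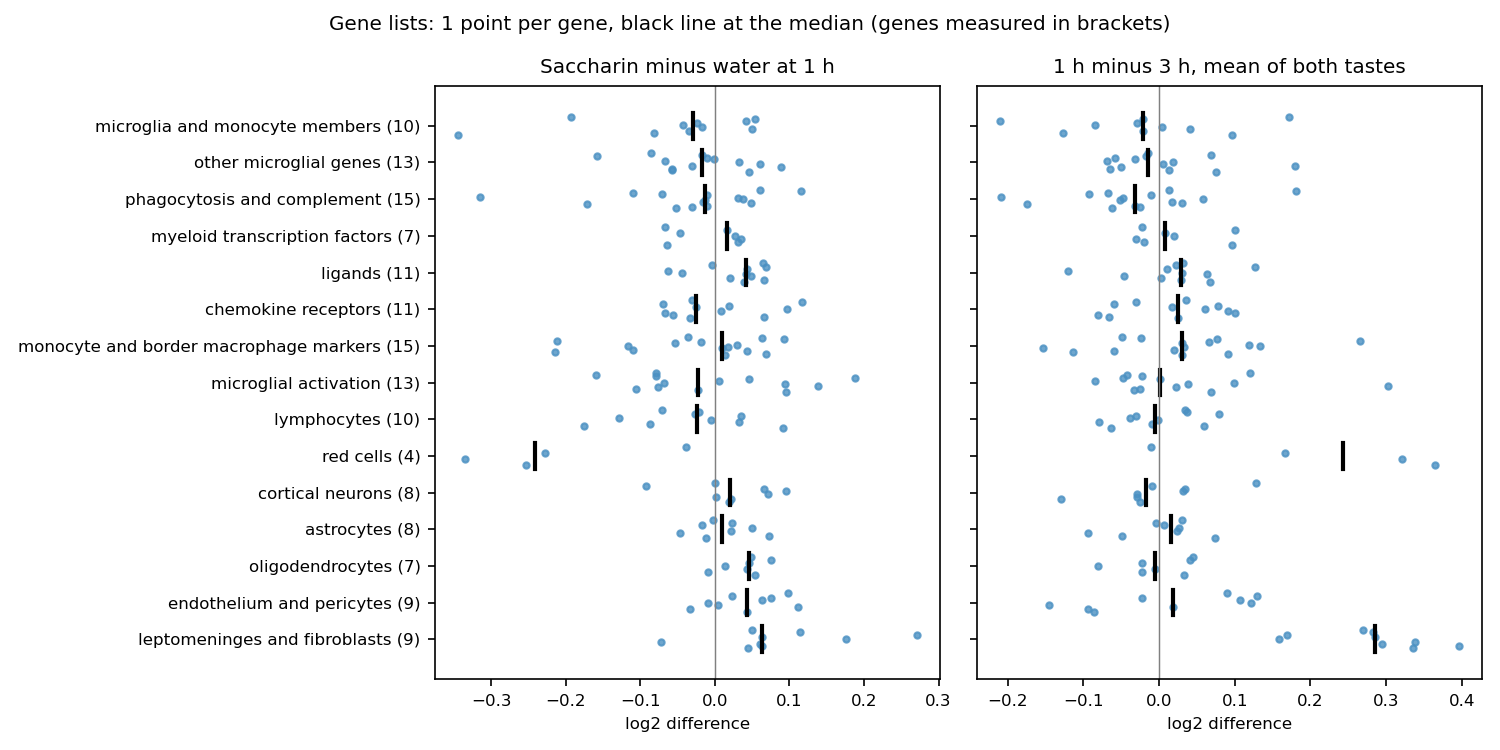
Log2 differences (x axis) of every measured gene on 15 lists (y axis), for saccharin minus water at 1 h and for 1 h minus 3 h averaged over tastes, with 1 point per gene and a black line at the median. Microglial lists centre near 0 in both panels. The median of the 4 red cell genes is -0.24 for taste (range -0.34 to -0.04) and 0.24 for time (range -0.01 to 0.36). The median of the leptomeningeal genes is 0.29 for time.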

How the data were processed

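Total RNA of 16 rat gustatory cortices was hybridised by the authors to Affymetrix rat gene ST arrays, 1 rat per array, in 4 groups of 4. With the R package affy, the authors normalized probe signals between arrays by quantiles and summarised them by RMA, and the deposited values are log2 expression per probe set, used here as given. The number of arrays limits the precision. Genes were named by the platform's annotation: 306 probe sets paired with several genes and 13311 with no entry were not tested, and an unlisted probe set may still have a gene. Columns of other samples numbered 0.

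A model of group means, with 1 spread from all 16 arrays, was fitted in R 4.3.3 (limma 3.58.1), and p-values were Benjamini-Hochberg adjusted over 15209 probe sets, with 0.05 as the threshold. The fit was tested on simulated data. All tests were two-sided. The study's own selection of probe sets by alignment was replaced by the annotation. Correlations between members used deviations from group means and 100000 permutations within groups. Members, lists and tests were chosen with earlier results of these data known. Named genes are every member, up to 4 genes of each list with the smallest p for time averaged over tastes, the 5 probe sets most correlated with Ccr2 and with the mean of the other members, and the ligands of the member receptors; C1qb, C1qc, Cd8b and C5ar1 are named besides, chosen after their values were seen. Where a listed gene had several probe sets, that with the highest mean was taken. Alternatives were all probe sets, no dim probe sets, arrays centred on their medians, quantile normalization repeated, another prior, array weights, only the arrays compared, and each array left out. Sequences and builds are from RefSeq (GRCr8), and no coordinates of the array's own build are given.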

Additional observations from a re-analysis of the deposited data

Results flagged for a closer look

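In 5 of 40 member-by-group sets of 4 arrays, 1 array lay far from the other 3, by the gap to its nearest neighbour over the range of the group, past Dixon's limit for 4 values, which chance exceeds in about 1 of 20 sets. For Ccr2 in water 1 h, array C373 read 4.24 and the others 4.11 to 4.13. For Cx3cr1 in saccharin 1 h, C375 read 7.38 and the others 7.54 to 7.56. For Aif1 in water 1 h, C376 read 6.15 and the others 6.28 to 6.30. For Trem2 in saccharin 3 h, C372 read 5.81 and the others 5.32 to 5.38. For Itgam in saccharin 1 h, C375 read 4.94 and the others 4.77 to 4.80.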

How the results depend on the processing

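None of the 9 members other than Ccr2 passed an adjusted p of 0.05 in any of the 6 comparisons, nor Ccr2 in its 1 tested comparison, saccharin minus water at 3 h, under any alternative that held them. There were 23 alternatives (22 for time averaged over tastes and the interaction, which the fit of only the 8 arrays compared cannot give). For the tested differences, the smallest adjusted p was 0.0693, that of Cx3cr1 for time averaged over tastes with dim probe sets left out, and its range over the alternatives was 0.0693 to 0.225. For C1qa the range was 0.109 to 0.304. Leaving out dim probe sets removed Ccr2, Cd68 and Itgam, which thus have 1 alternative fewer. With each array left out in turn, Ccr2 at 1 h stayed between -0.39 and -0.28.

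The median of the 9 other members ran, over the arrays left out, from -0.038 to -0.0017 for saccharin minus water at 1 h, from -0.042 to 0.038 at 3 h, where its sign turned without C366, C367 or C370, from -0.096 to -0.014 for time after water and from -0.085 to 0.023 for the interaction, where its sign turned without C377. The median r of 36 pairs ran from 0.011 to 0.19, highest without C375. With group means not removed, r was 0.27 for Ccr2 and Cx3cr1 and 0.33 for Ccr2 and Tmem119.

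Of 60 differences of single members, 20 changed sign under some setting, none of them past the threshold. Ccr2 at 3 h was 0.000405 with quantile normalization repeated and 0.012 with array weights. With array weights Trem2 was 0.0090 for time after saccharin, 0.0021 for time averaged and 0.014 for the interaction. P2ry12 for time averaged was -0.000204 with arrays centred on their medians and -0.0049 with quantile normalization repeated. Over arrays left out, saccharin minus water at 1 h ran from -0.023 to 0.20 for Cd68, -0.087 to 0.044 for Tmem119, -0.037 to 0.0038 for P2ry12, -0.038 to 0.12 for C1qa and -0.056 to 0.013 for Trem2. At 3 h it ran from -0.030 to 0.022 for Ccr2, -0.057 to 0.21 for Itgam, -0.049 to 0.0036 for Cx3cr1 and -0.13 to 0.038 for Trem2. Time after saccharin ran from -0.097 to 0.14 for Itgam, -0.098 to 0.032 for Tmem119, -0.049 to 0.063 for Aif1 and -0.083 to 0.080 for Trem2. Time after water ran from -0.096 to 0.027 for Trem2, and time averaged from -0.067 to 0.050 for Cd68, -0.029 to 0.032 for P2ry12 and -0.066 to 0.029 for Trem2. The interaction ran from -0.00074 to 0.026 for Csf1r, -0.13 to 0.032 for C1qa and -0.062 to 0.10 for Trem2. The cause was not tested. No paired analysis was possible because no code in the sample titles stands in more than 1 group.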
